A study of Saccharomyces cerevisiae with 5 samples.

Results

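The genes described here encode the subunits of the yeast proteasome and RPN4, the transcription factor that drives their expression. The list was made by gene name, with earlier results of these data known, and holds 33 genes of the 6205 open reading frames on the arrays. It comprises 14 genes of the core particle (7 of the alpha ring and 7 of the beta ring), 18 genes of the regulatory particle (6 base ATPases, 4 other base subunits and 8 lid subunits) and RPN4. SEM1, a small lid subunit, is not in the list, and is described below with the assembly and accessory factors. All 33 have a row in the deposited table, and 29 of them have a value on each of the 5 arrays.

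The proteasome degrades proteins that carry ubiquitin chains. Its core particle is a barrel of alpha rings, which gate the entry, and beta rings, which carry the catalytic sites. The regulatory particle caps the barrel: its base unfolds substrates with a ring of ATPases, and its lid removes the ubiquitin. In budding yeast Rpn4 binds a shared promoter element of the subunit genes, and is itself a short-lived substrate of the proteasome, so that the transcription of the subunits follows the load on the complex.

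The study asked how Saccharomyces cerevisiae responds to a high glucose concentration. Cells grown overnight in YP, a rich medium, at 2% glucose were moved at an OD600 of 0.1 into fresh YP with either 2% or 20% glucose, and were harvested 1 hour later. The labels name no strain, genotype or age of the cultures beyond this, and all samples share the overnight medium with 2% glucose. RNA of both media was hybridised together on each of 5 2-colour arrays, with 2% glucose in Cy5 on arrays 1, 3 and 4 and 20% glucose in Cy5 on arrays 2 and 5. Whether each array had its own cultures, or some share RNA with the dyes swapped, is not stated in the labels. The p-values below therefore measure only the spread between arrays, which may be technical.

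In these bulk cultures, a change in fewer cells and less RNA per cell cannot be told apart. Values are log2 ratios of RNA labelled 20% glucose to RNA labelled 2% glucose, centred by the authors near 0 within each array, so that a change shared by most genes cannot be seen. The direction rests on the dye labels. GPD1, an enzyme of glycerol synthesis known to be induced by high osmolarity, had log2 ratios from -6.88 to -1.78, below 0 on 5 of 5 arrays, opposite to its known response. GPP2 and HXT1, the other genes checked for direction, were also below 0 on 5 of 5 arrays, from -3.49 to -1.33 and from -3.70 to -1.95. Both are likewise opposite to their known response, so no gene checked went with the direction of the dye labels. If the dye labels were exchanged, every sign below would turn. Arrays 1 to 3 and arrays 4 and 5 form sets that stand apart. The correlation across genes was 0.951 between arrays 4 and 5 and 0.861 between arrays 2 and 3, both pairs of opposite dye orientation, and 0.597 and 0.618 between array 1 and arrays 2 and 3. Across the sets it ran from 0.256 to 0.374. On arrays 4 and 5, deposited values of 10 or more in size were divided by 10. None of the 33 genes had such a value, and the division touches them only through the spread that the fit shares across genes.

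Of the 4 genes without 5 values, PRE3 and PRE8 were measured on arrays 4 and 5 only. PRE6 and PRE9, both of the alpha ring, have no value on any array in the deposited table. Their spots carry the code N in the amplification column of the scanner files, which the sources used here do not explain. In all, 112 spots carry it, of which 89, 90, 89, 49 and 62 have no value on arrays 1 to 5 in turn. The spots of the other 31 genes were well above background on arrays 4 and 5: the lowest ratio of spot to local background was 5.19 (RPN6, array 4), and the median in the channel with 20% glucose was 19.0 on array 4 and 20.9 on array 5.

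Over the 5 arrays the RNAs of most proteasome subunits were slightly higher in the RNA labelled 20%, and no single gene passed the test. The fitted log2 change was positive for 25 of 29 genes and negative for 4, with a median of 0.19 against 0.0032 for all genes tested, and ran from -0.11 (RPN10) to 0.50 (RPN12). With limma and Benjamini-Hochberg adjustment over 5447 genes, 0 of the 29 were called higher, where 2.24% of all genes were, and 0 were called lower, where 1.45% were. At an unadjusted p under 0.05, 6 were higher (RPN1, RPN12, PRE5, SCL1, PRE1 and PUP3), where 14.5% of all genes were. The ratio was above 0 on all 5 arrays for 9 of 29 genes (31.0%), against 16.7% of the 4693 genes with 5 values, and below 0 on all 5 for 0 of 29, against 19.8%. Since the sets differ, a fit that also held a term for the set called 8 of 29 higher (RPN1, PRE1, RPN12, SCL1, PRE5, PRE10, PUP3 and RPN7), where 16.4% of all genes were called higher. A fit without the dye term called 5 higher, where 8.5% were.

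The small change over 5 arrays combined different values in the sets. On arrays 1 to 3 most of the genes were higher in the RNA labelled 20%: 23 of 29 (79.3%) were above 0 on each of these arrays, against 30.2% of all genes, and the median fitted log2 change was 0.36 against -0.018. In the limma fit to these arrays, 9 of 29 (31.0%) were called higher, where 11.5% of all genes were, and 0 were called lower, where 5.96% were. In fits to the remaining pair of arrays, with no dye term, that count was 19 without array 1, where 20.8% of all genes were called higher, 3 without array 2, where 6.46% were, and 0 without array 3, where 3.05% were. On arrays 4 and 5 the genes were spread around 0. Of the 29 genes, 10 (34.5%) were above 0 on both, against 42.4% of all genes, and 12 (41.4%) below 0 on both, against 44.3%. In the limma fit 5 of 31 were called higher, where 27.9% of all genes were, and 4 of 31 were called lower, where 26.6% were. The fits within a set have 1 residual degree of freedom per gene and lean on the spread shared over genes.

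**Figure D1:**
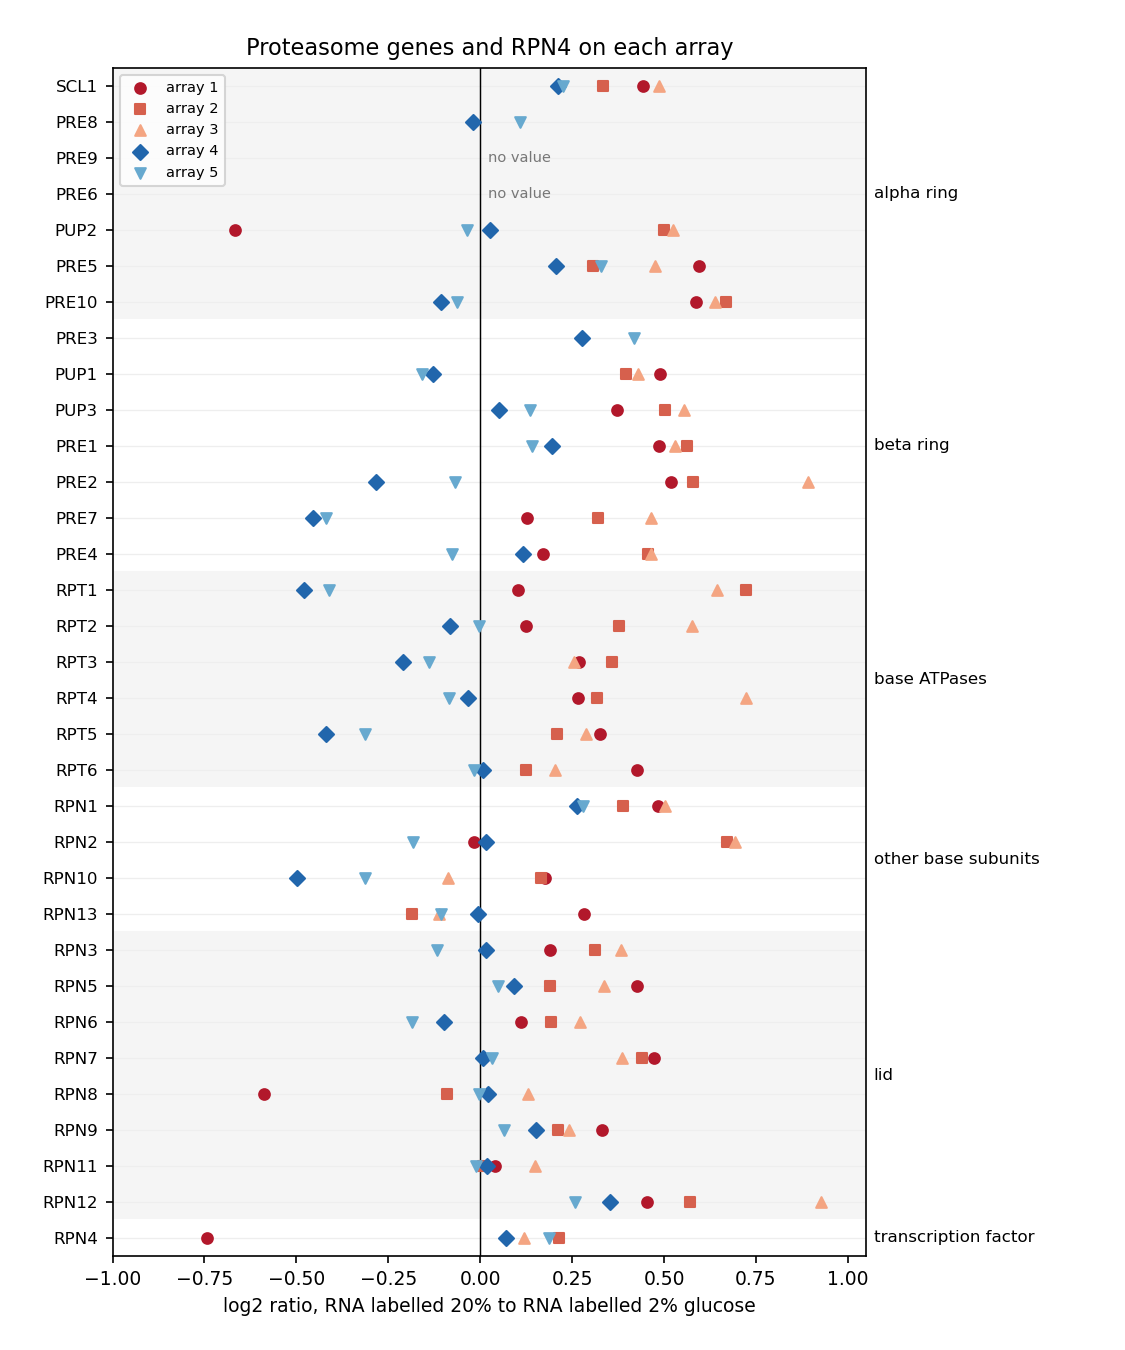
Log2 ratio of RNA labelled 20% to RNA labelled 2% glucose (x axis) for each proteasome gene and RPN4 (rows, grouped by role), with 1 point per array; red shades are arrays 1 to 3 and blue shades arrays 4 and 5. The red points of 22 of the 29 genes with 5 values lie wholly to the right of the blue points, an order seen for 28.7% of all genes with 5 values. Array 1 lies far to the left for PUP2, RPN8 and RPN4.

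In the alpha ring, whose subunits form the outer gates of the core, PRE10 (YOR362C) had log2 ratios of 0.59, 0.67, 0.64, -0.11 and -0.064 on arrays 1 to 5. The arrays of each set lay close together and the sets did not overlap. On arrays 1 to 3 the fitted log2 change was 0.64 ± 0.14 (SE, n = 3 arrays; limma, adjusted p = 0.00822), which is 1.56-fold higher, and the fitted difference of arrays 4 and 5 from arrays 1 to 3 was -0.73 ± 0.12 (adjusted p = 0.0221).

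SCL1 (YGL011C), another alpha subunit, had 0.44, 0.33, 0.48, 0.21 and 0.23 on arrays 1 to 5. It was above 0 on every array, with the lowest values on arrays 4 and 5. Its log2 change over 5 arrays was 0.33 ± 0.083 (SE; limma, adjusted p = 0.0764), and on arrays 4 and 5 alone it was called higher, at 0.22 ± 0.051 (adjusted p = 0.0264). PRE5 (YMR314W) was similar, with log2 ratios of 0.59, 0.31, 0.48, 0.21 and 0.33, all above 0, and array 5 above array 2. Its log2 change was 0.37 ± 0.090 over 5 arrays (limma, adjusted p = 0.0714) and 0.27 ± 0.059 on arrays 4 and 5, where it was called higher (adjusted p = 0.0231). With the ratios of the scanner files PRE5 was not called there.

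The alpha subunit gene PUP2 (YGR253C) had log2 ratios of -0.67, 0.50, 0.52, 0.026 and -0.037. Array 1 was the lowest and arrays 2 and 3 the highest, so that arrays 1 to 3 ranged over both sides of arrays 4 and 5. The change over 5 arrays was 0.10 ± 0.19 (SE; limma, adjusted p = 0.777), and 0.25 without array 1 (adjusted p = 0.357). PRE8, with values of -0.019 and 0.11 on arrays 4 and 5, was not called there (log2 change 0.045 ± 0.059; limma, adjusted p = 0.549). With PRE6 and PRE9 lacking values, 4 of the 7 alpha subunits could be compared between the sets.

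The beta ring holds the catalytic sites of the complex. PRE2 (YPR103W), the subunit with the chymotrypsin-like site, had log2 ratios of 0.52, 0.58, 0.89, -0.28 and -0.069 on arrays 1 to 5. Arrays 1 to 3 were high, with array 3 highest, and arrays 4 and 5 were below 0. On arrays 1 to 3 it was 1.56-fold higher in the RNA labelled 20% (log2 0.64 ± 0.14, SE; limma, adjusted p = 0.0107), and the difference of arrays 4 and 5 from them was -0.84 ± 0.17 (adjusted p = 0.0332).

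PUP1 (YOR157C), which carries the trypsin-like site, had log2 ratios of 0.49, 0.40, 0.43, -0.13 and -0.16. It too was above 0 on each of arrays 1 to 3 and below 0 on arrays 4 and 5. Its log2 change was 0.43 ± 0.14 on arrays 1 to 3 (SE; limma, adjusted p = 0.0482), just inside the threshold of 0.05, and the difference between the sets was -0.57 ± 0.13 (adjusted p = 0.0389). PRE3 (YJL001W), which carries the caspase-like site, was measured only on arrays 4 and 5, at 0.28 and 0.42. PRE3 was called higher there (log2 0.35 ± 0.061; limma, adjusted p = 0.0132), though not with the ratios of the scanner files. Both values were above 0, opposite in sign to those of PRE2 and PUP1 on the same arrays. PRE2 and PUP1 were not called on arrays 4 and 5 (limma, adjusted p = 0.108 and 0.0770). The 3 catalytic subunits thus did not share a sign there, though only PRE3 was called.

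Among the beta subunits without a catalytic site, PRE7 (YBL041W) had log2 ratios of 0.13, 0.32, 0.47, -0.46 and -0.42. The values were above 0 on arrays 1 to 3 and below 0 on arrays 4 and 5. Its change over 5 arrays was -0.0017 ± 0.18 (SE; limma, adjusted p = 0.995), while on arrays 4 and 5 it was called lower, at -0.44 ± 0.051 (adjusted p = 0.00502), and the sets differed by -0.75 ± 0.15 (adjusted p = 0.0332).

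PRE1 (YER012W) had log2 ratios of 0.49, 0.56, 0.53, 0.20 and 0.14, all above 0, with no overlap between the sets. It was called higher on arrays 1 to 3 (0.54 ± 0.14, SE; limma, adjusted p = 0.0194), and its difference between the sets, -0.36 ± 0.13, did not pass (adjusted p = 0.119). PUP3 was also above 0 on all 5 arrays and called higher on arrays 1 to 3 (0.48 ± 0.14, SE; limma, adjusted p = 0.0317). PRE4, the remaining beta subunit, had 0.17, 0.46, 0.46, 0.12 and -0.077 and was not called over 5 arrays, within a set or between the sets. In all, 4 of the 6 beta genes with 5 values and 1 of the 4 such alpha genes were called higher on arrays 1 to 3, where 11.5% of all genes were.

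The base ATPases RPT1 to RPT6 form the ring that unfolds substrates and threads them into the core. All 6 were above 0 on each of arrays 1 to 3, where 30.2% of all genes with 5 values were. The mean over arrays 4 and 5 was below 0 for all 6, from -0.45 (RPT1) to -0.0058 (RPT6). In none of the 6 did the sets overlap. Arrays 1 to 3 were the higher ones, an order seen for 28.7% of all genes with 5 values. Their median fitted log2 change over 5 arrays was 0.13.

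RPT1 (YKL145W) had log2 ratios of 0.10, 0.72, 0.64, -0.48 and -0.41 on arrays 1 to 5. Arrays 2 and 3 were far above array 1, and arrays 4 and 5 lay below 0. It was the 1 gene among the 29 called higher on arrays 1 to 3 (log2 0.55 ± 0.15, SE; limma, adjusted p = 0.0281) and lower on arrays 4 and 5 (-0.45 ± 0.053; adjusted p = 0.00519). Over all genes with 5 values, 1.6% were called in this way. The difference of -0.97 ± 0.20 between the sets was the largest in size among the 29 genes (adjusted p = 0.0332).

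RPT5 (YOR117W), whose tail inserts into the core and helps to open its gate, had log2 ratios of 0.33, 0.21, 0.29, -0.42 and -0.31. It was above 0 on arrays 1 to 3, where it was not called (0.26 ± 0.14; limma, adjusted p = 0.209), and was called lower on arrays 4 and 5 (-0.37 ± 0.057; adjusted p = 0.00945). The sets differed by -0.64 ± 0.13 (SE; limma, adjusted p = 0.0328). RPT3 differed by -0.48 ± 0.12 (adjusted p = 0.0591), just outside the threshold. RPT2, RPT4 and RPT6 had differences of -0.41, -0.48 and -0.24, none of which passed (adjusted p = 0.174, 0.134 and 0.307).

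The other base subunits are the scaffolds RPN1 and RPN2 and the ubiquitin receptors RPN10 and RPN13. RPN1 (YHR027C), which docks ubiquitin shuttle proteins, had log2 ratios of 0.48, 0.39, 0.50, 0.26 and 0.28. It was above 0 on every array, with arrays 4 and 5 below the other 3. Over 5 arrays its log2 change was 0.38 ± 0.082, a ratio of 1.30, with the lowest adjusted p of the 29 genes (limma, adjusted p = 0.0606). It was called higher in each set, at 0.44 ± 0.14 on arrays 1 to 3 (adjusted p = 0.0424) and 0.27 ± 0.051 on arrays 4 and 5 (adjusted p = 0.0150).

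RPN2 (YIL075C), the scaffold that holds RPN13, had log2 ratios of -0.016, 0.67, 0.69, 0.015 and -0.18. Arrays 2 and 3 stood well above the other 3, and array 1 lay with arrays 4 and 5. Its log2 change on arrays 1 to 3, 0.50 ± 0.16 (SE; limma, adjusted p = 0.0507), lay just outside the threshold. The receptors were among the 4 genes with a negative change over 5 arrays. RPN10 (YHR200W) had log2 ratios of 0.18, 0.17, -0.088, -0.50 and -0.31, the lowest on arrays 4 and 5, where it was called lower (-0.41 ± 0.068; limma, adjusted p = 0.0115). RPN13 (YLR421C) had 0.28, -0.18, -0.11, -0.0071 and -0.11, with array 1 above 0 and the other 4 below it, and was not called over 5 arrays, within a set or between the sets.

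The lid holds RPN11, the enzyme that cuts ubiquitin from the substrate, and subunits that place it. RPN12 (YFR052W), which joins the lid last during its assembly, had log2 ratios of 0.45, 0.57, 0.93, 0.35 and 0.26 on arrays 1 to 5. All were above 0, array 3 was highest, and the sets did not overlap. Its log2 change over 5 arrays of 0.50 ± 0.12 was the largest of the 29 (ratio 1.41; SE; limma, adjusted p = 0.0685). RPN12 was called higher on arrays 1 to 3 (0.63 ± 0.15; adjusted p = 0.0136) and on arrays 4 and 5 (0.31 ± 0.056; adjusted p = 0.0142). RPN1 and RPN12 were the 2 of 29 genes called higher in both sets, where 6.03% of the 4693 genes with 5 values were.

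RPN11 (YFR004W) itself stayed near 0, with log2 ratios of 0.041, 0.0086, 0.15, 0.018 and -0.013. Its change over 5 arrays was 0.034 ± 0.074 (SE; limma, adjusted p = 0.804), with a 95% interval of -0.15 to 0.22. RPN8 (YOR261C), the partner of RPN11 in the lid, had -0.59, -0.092, 0.13, 0.022 and -0.0043, with array 1 far below the other 4. Its change was -0.10 ± 0.13 over 5 arrays (SE; limma, adjusted p = 0.653) and 0.014 without array 1 (adjusted p = 0.940). Its spot on array 5 was uneven, with a mean pixel intensity 1.75 times the median in the channel with 20% glucose, the highest among the 31 genes with a value.

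RPN7 (YPR108W), a structural lid subunit, had log2 ratios of 0.47, 0.44, 0.38, 0.0088 and 0.033. Arrays 1 to 3 were close together and arrays 4 and 5 near 0, and it was called higher on arrays 1 to 3 (0.43 ± 0.14, SE; limma, adjusted p = 0.0458). RPN5 and RPN9 were above 0 on all 5 arrays. RPN6, which clamps the lid to the core, and RPN3 were above 0 on arrays 1 to 3, with means of -0.14 ± 0.063 and -0.051 ± 0.093 (SD, n = 2) on arrays 4 and 5. None of RPN3, RPN5, RPN6 and RPN9 was called over 5 arrays, within a set or between the sets.

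RPN4 (YDL020C), the transcription factor, had log2 ratios of -0.74, 0.21, 0.12, 0.069 and 0.19 on arrays 1 to 5. Array 1 was far below 0 and the other 4 were slightly above it. Its log2 change over 5 arrays was 0.0072 ± 0.15 (SE; limma, adjusted p = 0.980), with a 95% interval of -0.36 to 0.38, so that 5 arrays could not tell a change of that size from none. Without array 1 it was 0.15 (adjusted p = 0.349). The difference between the sets was 0.21 ± 0.28 (limma, adjusted p = 0.651), with an interval of -0.48 to 0.89, and -0.038 without array 1 (adjusted p = 0.827). The spot of RPN4 was brighter over background than the median of the list, at 34.8 times background on array 4 and 61.1 times on array 5 in the channel with 20% glucose. Array 1 was below 0 and arrays 2 and 3 above it for 3 of the 29 genes (RPN4, PUP2 and RPN2), which is 10.3%, against 8.82% of all genes with 5 values.

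The core and regulatory particles were compared by their medians on each array, with no test, since genes of a complex are not replicates. The median log2 ratio of the 10 core genes was 0.46, 0.48 and 0.50 on arrays 1, 2 and 3, and that of the 18 regulatory genes was 0.27, 0.26 and 0.31. The core median was thus above the regulatory one by 0.20, 0.22 and 0.19 on these arrays. On arrays 4 and 5 both medians were near 0, at 0.038 and -0.051 for the core and 0.0076 and -0.051 for the regulatory particle. The core genes PRE3 (0.28 and 0.42) and PRE8 (-0.019 and 0.11), measured only on arrays 4 and 5, are not in these medians. The median of all genes lay between -0.011 and -0.0024 on the 5 arrays. On arrays 1 to 3, 5 of 10 core genes (50.0%) and 4 of 18 regulatory genes (22.2%) were called higher, where 11.5% of all genes were.

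**Figure D2:**
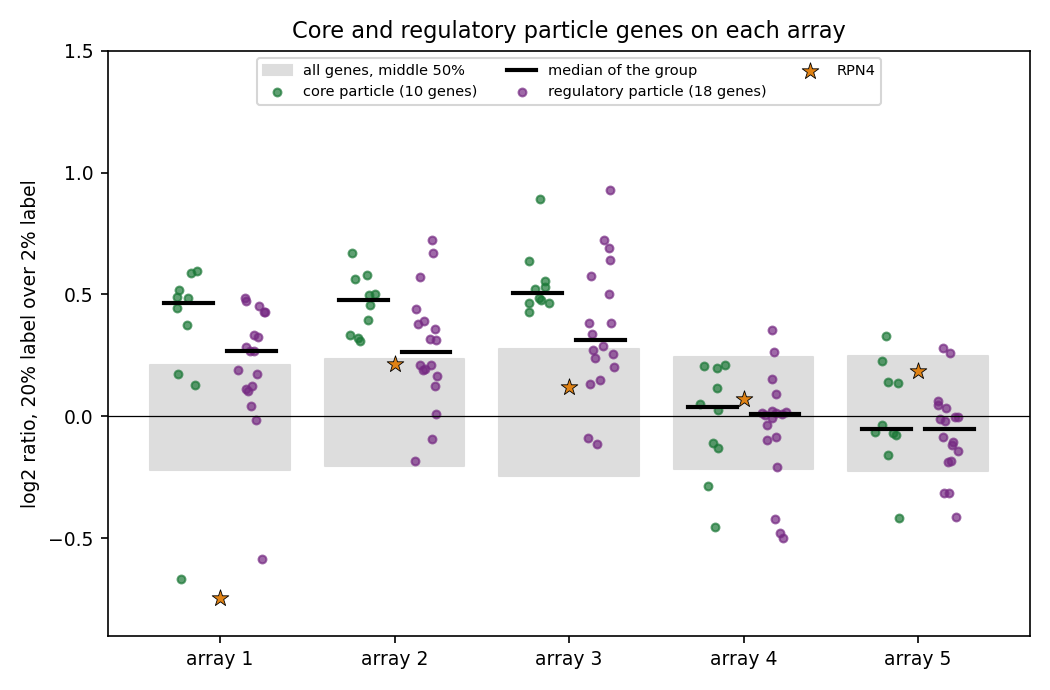
Log2 ratio of RNA labelled 20% to RNA labelled 2% glucose (y axis) on each array (x axis) for core particle genes (green), regulatory particle genes (purple) and RPN4 (star); black bars are group medians and grey boxes the middle 50% of all genes. The core median lies above the regulatory median on arrays 1 to 3, and both are near 0 on arrays 4 and 5. Only genes with 5 values are shown.

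The sets were compared to see whether these genes behaved alike on all arrays. Both sets carry the same labels for medium and time, and the sources used here do not say what else differed between them. Arrays 1 to 3 all lay above both arrays 4 and 5 for 22 of 29 genes (75.9%), against 28.7% of all genes with 5 values. The reverse order was seen for 0 of 29, against 30.2%. The genes whose sets overlapped were PUP2, PRE5, RPN2, RPN13, RPN8, RPN11 and RPN4. The fitted difference of arrays 4 and 5 from arrays 1 to 3 was negative for 27 of 29 genes, with a median of -0.34 against 0.012 for all genes tested.

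With limma and Benjamini-Hochberg adjustment, 6 of 29 genes were called lower on arrays 4 and 5 than on arrays 1 to 3 (PRE10, RPT5, RPT1, PRE7, PRE2 and PUP1), where 6.17% of all genes were, and 0 were called higher, where 6.61% were. Of the 6, 4 belong to the core and 2 to the base ATPases. The count was 19 without array 1, where 23.2% of all genes were called lower, and 7 without array 3, where 7.96% were. It was 0 without array 2, array 4 or array 5, where 1.24%, 0.725% and 2.06% of all genes were called lower. The value of the difference itself ranged for these 6 genes from -1.13 (RPT1) to -0.52 (RPT5) over the arrays left out. Both ends came from the fit without array 4, so each compares array 5 with array 2 only. With the dye term, the fits without array 2 and without array 5 both compare array 4 with arrays 1 and 3 only. Both gave the same median difference over the 29 genes, -0.32. The fits without array 2 and without array 5 are therefore not separate checks. The fit without array 4 takes its difference from other arrays. In all of these fits the residual spread comes from arrays 1 and 3 only. Each of these fits sets aside more arrays than the one named. Array 1 also had the lowest correlation with its set over the 29 genes, at 0.241 with array 2 and 0.296 with array 3, against 0.829 between arrays 2 and 3 and 0.888 between arrays 4 and 5.

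**Figure D3:**
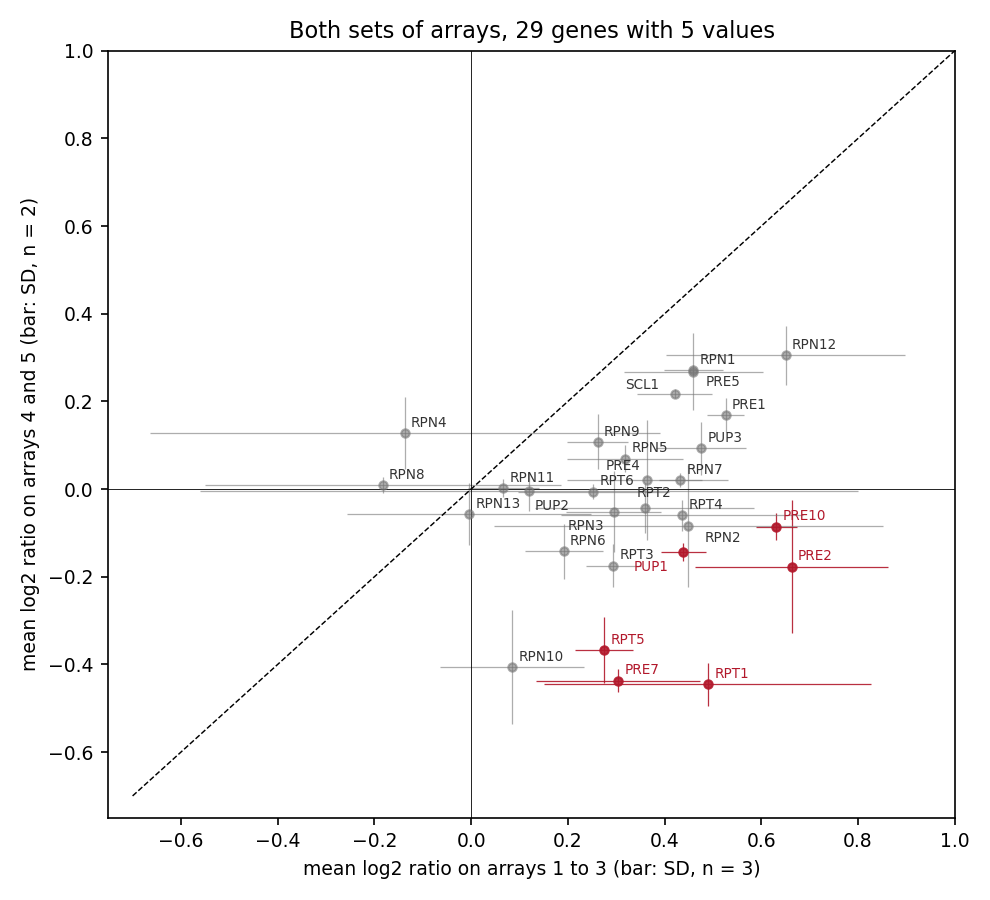
Mean log2 ratio on arrays 4 and 5 (y axis; bars show the SD, n = 2) against the mean on arrays 1 to 3 (x axis; bars show the SD, n = 3) for the 29 genes with 5 values. Nearly all points lie below the dashed line of equal means, and the 6 genes called lower on arrays 4 and 5 than on arrays 1 to 3 are in red.

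The order of the genes within the complex was not shared by the sets. Across the 29 genes the mean over arrays 1 to 3 and the mean over arrays 4 and 5 had a correlation of 0.123, against 0.380 across 4693 genes, given as a description since genes are not independent. PRE2 ranked 1 of the 29 on arrays 1 to 3 and 25 on arrays 4 and 5, and RPN12 ranked 2 and 1. By position, no gene of the list overlaps a neighbouring gene in the RefSeq annotation (assembly R64). RPT4 and RPN8 lie on either side of GCD1, and PRE4 and RPN12 lie on either side of RET2.

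Other genes of the pathway were described from 3 lists. Of 15 assembly and accessory factors, 14 could be fitted over 5 arrays, with a median log2 change of 0.037. Of these 0 were called, where 3.69% of all genes were. The smallest p-values belonged to ECM29 (0.31 ± 0.11; limma, adjusted p = 0.136), which tethers the regulatory particle to the core, HUL5 (0.24 ± 0.086; adjusted p = 0.142), a ubiquitin ligase bound to the proteasome, PBA1 and NAS2, assembly chaperones. On arrays 1 to 3, where 11.5% of all genes were called higher, 1 of 13 was, TMA17, a stress-induced chaperone of the base, with log2 ratios of -0.049, 0.83, 1.38, -0.21 and -0.33 on arrays 1 to 5. On arrays 4 and 5, 0 of 13 were called higher, where 27.9% of all genes were, and 6 lower, where 26.6% were. Between the sets, where 6.17% of all genes were called lower on arrays 4 and 5, 4 of 14 were: NAS6 (-0.83 ± 0.14; adjusted p = 0.0210), NAS2 (-0.81 ± 0.18; adjusted p = 0.0385) and HSM3 (-0.72 ± 0.15, without a value on array 3; adjusted p = 0.0428), which are chaperones of the base, and SEM1 (-0.72 ± 0.13; adjusted p = 0.0254), a small lid subunit. TMA17, NAS6, HSM3 and SEM1 were named after their values were seen.

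Of 22 genes of the ubiquitin and Cdc48 pathway, 21 could be fitted over 5 arrays, with a median log2 change of 0.083. Of these 0 were called, where 3.69% of all genes were. The smallest p belonged to CDC48, the ATPase that pulls ubiquitinated proteins out of complexes and membranes, with log2 ratios of 0.49, 0.63, 0.84, 0.28 and 0.48. It was above 0 on all 5 arrays, with a log2 change of 0.55 ± 0.11 (SE; limma, adjusted p = 0.0540), and was called higher on arrays 1 to 3 (0.65 ± 0.14; adjusted p = 0.00978) and on arrays 4 and 5 (0.38 ± 0.070; adjusted p = 0.0146). UBA1, the ubiquitin-activating enzyme, was the other of 2 of 19 genes called higher on arrays 1 to 3 (0.62 ± 0.14; limma, adjusted p = 0.0109) and the 1 of 21 called lower on arrays 4 and 5 than on arrays 1 to 3 (-0.74 ± 0.14; adjusted p = 0.0281). These counts stand beside 11.5% of all genes called higher on arrays 1 to 3 and 6.17% called lower between the sets, so neither is above the share over all genes. The ubiquitin ligases UBR1 and SAN1 had log2 changes of 0.19 ± 0.091 and -0.16 ± 0.088 over 5 arrays (SE; limma, adjusted p = 0.232 and 0.285). On arrays 4 and 5, 3 of 21 were called higher, where 27.9% of all genes were, and 6 lower, where 26.6% were.

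The 6 regulators of RPN4 comprise the activators HSF1, PDR1, PDR3 and YAP1 and the ubiquitin ligase UBR2 with its partner MUB1, which mark Rpn4 for degradation. None was called over 5 arrays, where 3.69% of all genes were. On arrays 1 to 3 none was called, where 11.5% of all genes were called higher and 5.96% lower. Between the sets none was called, where 6.61% of all genes were called higher on arrays 4 and 5 and 6.17% lower. The lowest p over 5 arrays was that of YAP1, which had log2 ratios of 0.51, 0.19, 0.26, 0.15 and 0.072, all above 0, and a change of 0.22 ± 0.089 (SE; limma, adjusted p = 0.176). MUB1 was the 1 of 6 called higher on arrays 4 and 5, where 27.9% of all genes were (0.20 ± 0.058; limma, adjusted p = 0.0438).

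**Figure D4:**
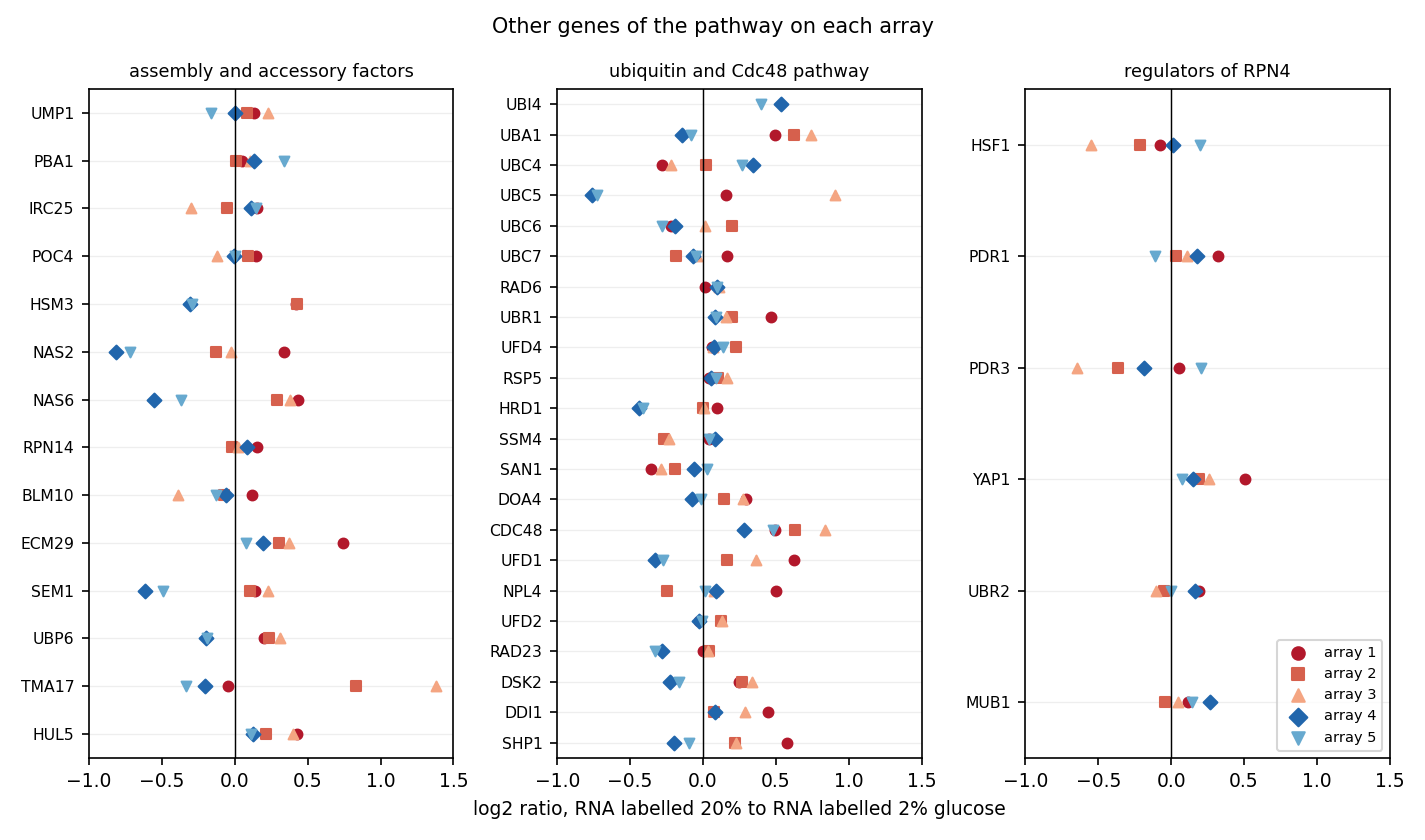
Log2 ratio of RNA labelled 20% to RNA labelled 2% glucose (x axis) on each array for the other genes of the pathway (rows), in 3 lists; red shades are arrays 1 to 3 and blue shades arrays 4 and 5. NAS2, NAS6, SEM1 and HSM3 show arrays 4 and 5 well to the left, and CDC48 lies to the right of 0 on all 5 arrays.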

How the data were processed

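The members and gene lists were chosen with earlier results of these data known. The deposited value table holds log2 ratios of the 2 channels, which the authors centred near 0 within each array. Software and filters: not given in the sources used here. Scanner files were deposited for arrays 4 and 5. They hold, per the file headers, the intensity of each spot and its local background at both wavelengths, a log2 ratio, and a quality score (the flag). No flagged spot (17 on array 4, 47 on array 5) has a value in the table.

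The arrays hold 5669, 5373, 5650, 5804 and 5568 values. The number of arrays limits the precision. On arrays 4 and 5, 258 and 262 deposited values of 10 or more in size had a median of 10.18 and -10.18 times the normalized scanner ratio and were divided by 10. The correlation with the scanner ratios was then 0.991 on array 4 and -0.964 on array 5. By the dye labels the deposited sign is 2% over 20% glucose on both, so all values were multiplied by -1. No scanner values were used for arrays 1 to 3, whose scale and direction were taken as the same.

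Genes with at least 4 values (5447) were fitted by lmFit and eBayes of limma 3.58.1 (R 4.3.3) with a dye term, and the difference of the sets with a further term. Arrays 1 to 3 were fitted with a dye term (5164 genes) and arrays 4 and 5 without one (5371 genes). The fitted change on arrays 1 to 3 therefore gives array 2 the weight of arrays 1 and 3 together, and differs from the plain mean. For PUP2 it was 0.21 against a mean of 0.12, and for RPN4 -0.050 against -0.14. The residual spread of each gene in that fit comes from arrays 1 and 3 only. Tests were two-sided, with Benjamini-Hochberg adjustment over every gene tested, at a threshold of 0.05. The procedure was tested on simulated data. The dye term called 0 genes (11 positive and 7 negative at an unadjusted p under 0.05). That fit held no set term, so the difference between the sets entered its residual spread. These counts therefore do not show that a dye effect was absent.

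Named genes are all members and up to 4 per pathway list with the smallest p over 5 arrays. Genes outside this rule are said to be so. A RefSeq gene table (assembly R64) gave names to 5705 of 6205 ORFs. The planned search of promoters for the Rpn4 element was not run, since no promoter sequence was used here. No positions are printed, because the array files name no genome build.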

Additional observations from a re-analysis of the deposited data

Results flagged for a closer look

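The log2 ratio of RPN4 on array 1, -0.74, stood apart from its values on the other 4 arrays. Its gap to the nearest of them was 0.85 of the whole range, above Dixon's 95% critical value of 0.71 for 5 values. Chance alone gives such a gap in about 1 in 20 groups, and 29 genes were examined.

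By the limma test of the difference itself, the log2 ratios on arrays 4 and 5 differed from those on arrays 1 to 3 for 6 of 29 genes. Of all genes, 6.17% were called lower on arrays 4 and 5 by that test and 6.61% higher. The difference was -0.75 for PRE7, -0.97 for RPT1, -0.64 for RPT5, -0.57 for PUP1, -0.73 for PRE10 and -0.84 for PRE2, each with the lower values on arrays 4 and 5. These calls depended on which arrays were fitted, and with the deposited values undivided 1 of the 6 was left. What differed between the sets of arrays was not tested.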

How the results depend on the processing

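Each array holds RNA of both media, so each log2 ratio is already a pair within an array. No further pairing was possible, because the 5 arrays form 1 group and no other group shares their numbers. Over 5 arrays, the count of proteasome genes called higher, 0, became 5 without the dye term and 8 with a set term. The count of all genes called, 201, became 919 without the dye term, 1618 with the set as a term, 1 with the deposited values undivided and 111 with scanner ratios on arrays 4 and 5. Added after seeing the data, the set as a random block gave 1 and averaging the pairs of opposite dyes gave 4, with 0 of the 29 genes called in either. Between the sets, the 696 genes became 1183 without the dye term and 326 with undivided values, which left 1 of the 6 proteasome genes. The 5 called higher on arrays 4 and 5 became 3 with scanner ratios, while all genes called higher there went from 1496 to 1028. PRE3 and PRE5 were the genes no longer called higher. With the scanner intensities normalised anew, 6 were called higher and 6 lower there, beside 1493 and 1496 of all genes. With the arrays scaled, the core medians on arrays 1, 2 and 3 were 0.50, 0.50 and 0.45 and the regulatory median on array 3 was 0.28.

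Signs turned as follows, with no call on either side. Over 5 arrays, averaged pairs gave PUP2 -0.053, PRE7 0.028, RPN13 0.026 and RPN4 -0.15. Without the dye term PRE7 was at 0.0078 and RPN4 at -0.031, and with scaled arrays RPN4 was at -0.00097. RPT5 was at -0.047 with the set as a term and -0.032 with it as a random block. Between the sets, RPN13 was at 0.017 with scanner ratios. The cause was not tested.

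With each array left out in turn, 0 to 0 of the 29 genes were called higher or lower over 5 arrays, and 0 to 103 of all genes. On arrays 1 to 3 the count called higher ranged from 0 to 19 and that called lower from 0 to 0. Between the sets, 0 to 19 genes of the list were called lower on arrays 4 and 5, 0 to 0 higher, and 96 to 2225 of all genes were called. The log2 change over 5 arrays took both signs for PUP2 from -0.044 to 0.25, PRE7 from -0.19 to 0.18, RPT1 from -0.16 to 0.41, RPT3 from -0.018 to 0.23, RPT5 from -0.12 to 0.14, RPN10 from -0.23 to 0.015, RPN6 from -0.046 to 0.14, RPN8 from -0.17 to 0.014 and RPN4 from -0.069 to 0.15. The difference between the sets took both signs for PUP2 from -0.54 to 0.10, PRE5 from -0.33 to 0.022, RPN13 from -0.11 to 0.091, RPN8 from -0.011 to 0.35 and RPN4 from -0.038 to 0.39.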

Other observations

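The spots of PRE6 and PRE9, which have no value in the deposited table, can be read in the scanner files of arrays 4 and 5. PRE6 encodes an alpha subunit, and PRE9 encodes the alpha subunit that yeast can live without. The scanner's normalized log2 ratio of RNA labelled 20% to RNA labelled 2% glucose was -0.55 and -0.63 for PRE6 and -0.14 and 0.25 for PRE9. PRE6 was thus below 0 on both arrays, and PRE9 had opposite signs. Both spots were dim and uneven: in the channel with 20% glucose they were at 1.84 and 3.52 times local background for PRE6 and at 2.95 and 2.88 times for PRE9, and the mean pixel intensity was 2.16 and 1.78 times the median for PRE6 and 3.16 and 2.15 times for PRE9. These values entered no comparison.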
